A study of Schizosaccharomyces pombe with 12 samples.

Results

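The Paf1 complex and its partners are proteins that travel with RNA polymerase II while it reads a gene. The 9 genes chosen by name were *tpr1*, *paf1*, *cdc73*, *leo1*, *prf1*, *spt4*, *spt5*, *spt6* and *set2*. A single probe set was named for 6 of the 9, out of 4875 *S. pombe* probe sets on the arrays, and *paf1*, *cdc73* and *prf1* were not analysed here. The samples came from fission yeast in which *rpb1*, whose product is the catalytic subunit of this polymerase, had been truncated. *rpb1-12XCTD* cells, the control, had 12 wild-type heptad repeats in the carboxy terminal domain (CTD), and *rpb1-12XS2ACTD* cells had 12 repeats with alanine in place of serine 2. Both strains therefore carried a truncated CTD, and no cells with a full-length CTD were on the arrays. Cultures in YES medium were treated for 3 h with 0.5 µM latrunculin A (LatA), an inhibitor of the assembly of actin filaments, or with its solvent DMSO. The paper places such doses far below the dose that removes all actin filaments. Each of the 4 groups had 3 biological replicates, each on an array of its own.

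The CTD is a tail of repeats on which kinases place phosphate groups as transcription proceeds, and serine 2 is phosphorylated mostly in the body and toward the end of a gene. Elongation factors read this state, or act beside it. The Paf1 complex (Tpr1p, Paf1p, Cdc73p and Leo1p in fission yeast) promotes elongation and histone modification and limits the spread of silent chromatin. Spt4p and Spt5p form a clamp-like factor on the polymerase, and the repeats at the end of Spt5p are a substrate of the Cdk9 kinase. Prf1p, the fission yeast counterpart of Rtf1, binds those phosphorylated repeats. Spt6p is a histone chaperone of transcribed genes, and Set2p methylates histone H3 in gene bodies, recruited by the phosphorylated CTD.

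The arrays report the RNA of these genes and not the proteins or their binding. Each value is a log2 intensity normalized by RMA, which brings arrays to a common scale, and is given relative to the median of that gene over the 12 arrays. A gene can therefore be compared between arrays, but not with another gene. A gene was called different where a limma fit of all 4875 probe sets gave it an adjusted p under 0.05 together with a change of more than 1.5 fold (0.58 on the log2 scale). DMSO-treated *rpb1-12XS2ACTD* replicate 1 stood apart from its group. Across all probe sets its correlation with the other replicates of its group was r = 0.45 and 0.30. Its correlation with DMSO-treated *rpb1-12XCTD* was 0.31, 0.75 and 0.71 for replicates 1, 2 and 3. Of the 140 probe sets other than that of *tpr1* called between the strains with LatA, 103 had a value on this array nearer to the DMSO mean of *rpb1-12XCTD* than to the mean of the other DMSO arrays of *rpb1-12XS2ACTD*. These were 63 of the 72 that were lower in *rpb1-12XS2ACTD* with LatA and 40 of the 68 that were higher. The same was not counted over all 4875 probe sets or for another array, so these counts have no background share beside them. The median over all probe sets was −0.16, −0.11 and 0.070 for DMSO-treated *rpb1-12XCTD* and lay between −0.028 and 0.037 on the other 9 arrays.

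*tpr1*, which encodes the tetratricopeptide repeat subunit of the Paf1 complex (Ctr9 in other eukaryotes), was lower in *rpb1-12XS2ACTD* than in *rpb1-12XCTD* cells after LatA. Its log2 values were 0.41, 0.10 and 0.31 on the LatA arrays of *rpb1-12XCTD*. They were −0.55, −0.84 and −1.04 on the LatA arrays of *rpb1-12XS2ACTD*. Every array of the mutant lay below every array of the control. The means were 0.28 ± 0.16 (SD, n = 3) and −0.81 ± 0.25 (SD, n = 3). The difference was −1.08 log2, or 2.12 fold (SE 0.28, 95% confidence interval −1.70 to −0.47), with adjusted p = 0.0474 from limma. With LatA this was the only member called of 6, where 2.89% of all probe sets were called, and in this fit 1 of 6 passed by adjusted p alone, as 5.60% of all probe sets did. The call held with the methods' test, which estimates the spread of a gene from the 2 compared groups alone (adjusted p = 0.0379) and called 3.12% of all probe sets. It ended in 8 of 12 fits that left out an array, with adjusted p of 0.0537 to 0.176, which were those without any of the 6 LatA arrays and those without DMSO replicate 2 of either strain. With replicate number added to the model as a block it was lost too (adjusted p = 0.0649), as it was with trend and robust settings in limma (adjusted p = 0.0509). The call held in 8 of 10 other settings, the methods' test among them. Adjusted p was 0.00260 in a limma fit of the 2 compared groups alone and 0.000858 with array weights. It was 0.0280 with median centring and 0.00779 with quantile normalization. The main fit took its spread from all 4 groups, and *tpr1* had its widest SD, 0.65 (n = 3), in DMSO-treated *rpb1-12XS2ACTD*. The difference itself stayed between −0.97 and −1.21 whichever array was left out.

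**Figure D1:**
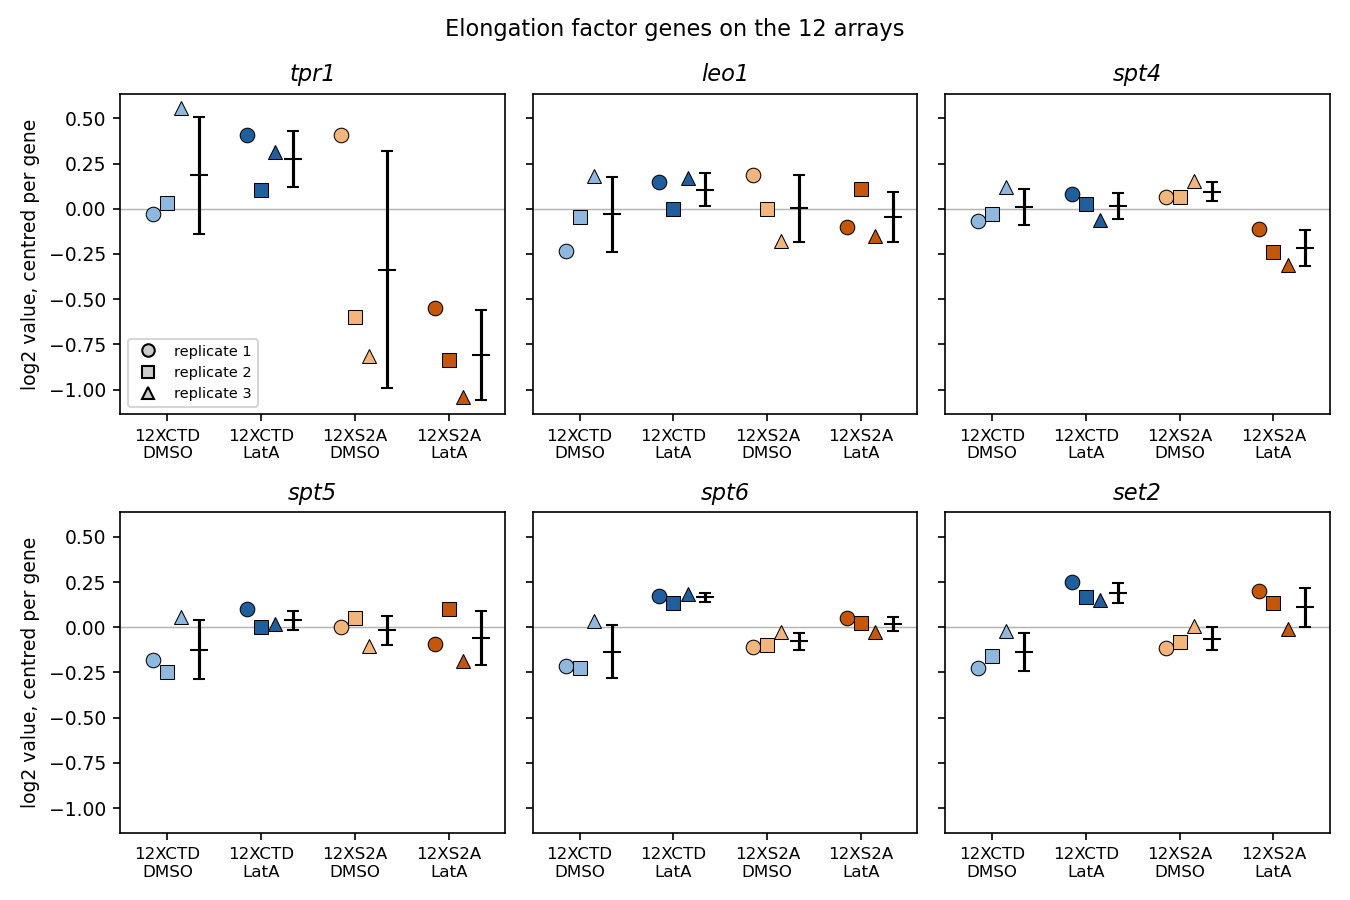
Log2 values of the 6 measured genes on the 12 arrays (vertical axis, centred on the median of each gene), with a marker for each replicate and the mean ± SD (n = 3) beside each group. *tpr1* spans 1.60 log2 over the 12 arrays, and the other genes span 0.35 to 0.48.

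Without LatA, the *tpr1* difference was not called. Its DMSO values were −0.031, 0.031 and 0.56 in *rpb1-12XCTD*. In *rpb1-12XS2ACTD* they were 0.41, −0.60 and −0.82. Replicates 2 and 3 of the mutant thus lay below the control arrays, and replicate 1, the array that stood apart, lay among them. The difference was −0.52 log2 (SE 0.28, 95% confidence interval −1.13 to 0.090, adjusted p = 0.370 from limma). Without *rpb1-12XS2ACTD* DMSO replicate 1 it was −0.89 (SE 0.19), and the call was made at adjusted p = 0.0202, in a fit that called 201 of 4875 probe sets. The *tpr1* difference changed less with other arrays left out. It was −0.28 without replicate 3 and −0.39 without replicate 2 of the same group, and −0.34 without *rpb1-12XCTD* DMSO replicate 3, none of them called. With DMSO limma called 0 of the 6 genes, where 0.862% of all probe sets were called and 0.964% passed by adjusted p alone. At an unadjusted p under 0.05 in limma 0 of the 6 passed, which 827 of 4875 probe sets did. The methods' test called 0 of all 4875 probe sets with DMSO, so its 0 of 6 says nothing about these genes. The groups overlapped in all 6 genes, against 9.54% of all probe sets with groups that did not.

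The LatA effect on *tpr1* was not called in either strain. It was 0.090 log2 in *rpb1-12XCTD* (95% confidence interval −0.52 to 0.70, adjusted p = 0.828). It was −0.47 in *rpb1-12XS2ACTD* (95% confidence interval −1.08 to 0.14, adjusted p = 0.218). The second value also turned on DMSO replicate 1, since it was −0.10 without that array and −0.71 without *rpb1-12XS2ACTD* DMSO replicate 3. The interaction (the LatA effect of the mutant less that of the control) was −0.56 (95% confidence interval −1.43 to 0.30, adjusted p = 0.582), so that a dependence of the *tpr1* difference on LatA was not shown.

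**Figure D2:**
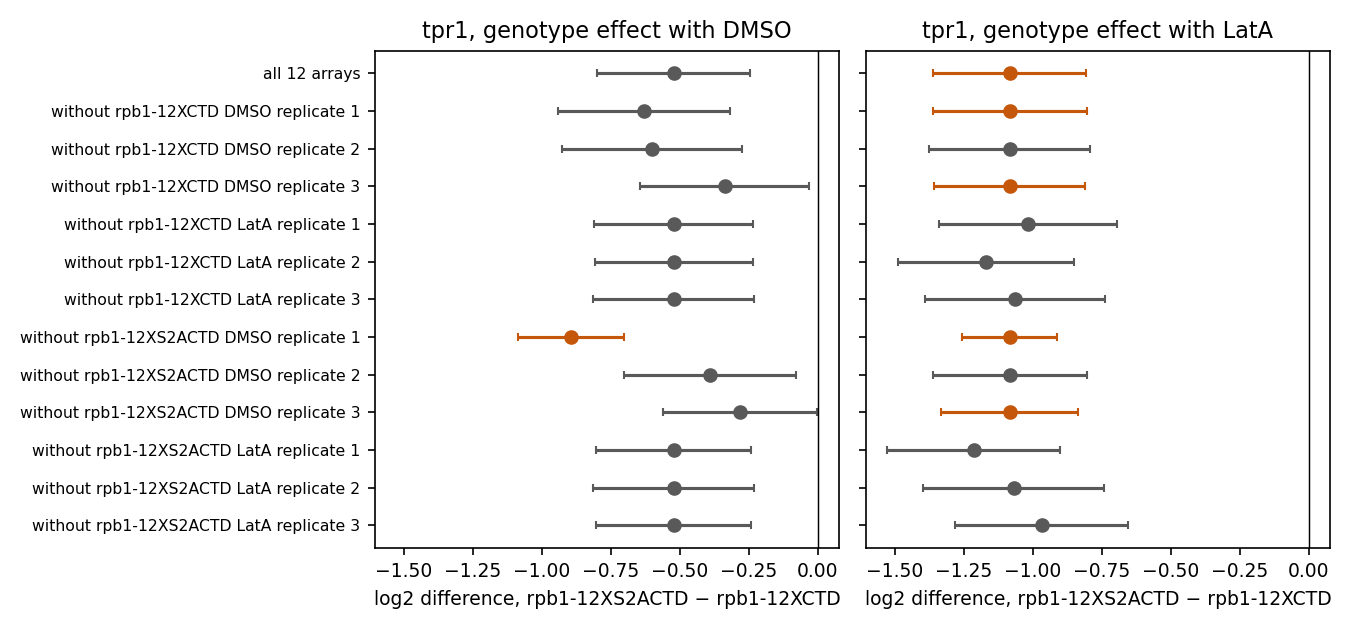
The *tpr1* log2 difference between strains (horizontal axis, *rpb1-12XS2ACTD* minus *rpb1-12XCTD*) with DMSO and with LatA, from all 12 arrays and with each array left out, with bars of 1 SE and orange for called differences. With DMSO the difference is called without *rpb1-12XS2ACTD* DMSO replicate 1, and with LatA it stays between −0.97 and −1.21.

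*leo1*, for a Paf1 complex subunit that limits heterochromatin in fission yeast, was not called in any comparison. Its 12 values ran from −0.23 to 0.19, and the groups overlapped in each comparison. The group means were −0.032 and 0.0029 with DMSO and 0.10 and −0.047 with LatA, for *rpb1-12XCTD* and *rpb1-12XS2ACTD* in that order. With LatA the strains differed by −0.15 log2 (95% confidence interval −0.43 to 0.12, adjusted p = 0.520 from limma), so that a difference past 1.5 fold lay outside the interval. With DMSO the difference was 0.035 (95% confidence interval −0.24 to 0.31).

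*spt4*, the small partner of *spt5*, had its lowest values in LatA-treated *rpb1-12XS2ACTD*. There they were −0.11, −0.24 and −0.31, against 0.065, 0.065 and 0.15 on the DMSO arrays of the same strain. The LatA arrays of *rpb1-12XCTD* gave 0.082, 0.027 and −0.064, and its DMSO arrays −0.066, −0.027 and 0.12. The LatA-treated mutant arrays lay below all 9 other arrays. The LatA effect in *rpb1-12XS2ACTD* was −0.31 log2 (SE 0.079, 95% confidence interval −0.49 to −0.14, adjusted p = 0.0115 from limma). It amounted to 1.24 fold and was not called, as it lay under the fold threshold. In *rpb1-12XCTD* the LatA effect was 0.0051 (95% confidence interval −0.17 to 0.18). The interaction was −0.32 (95% confidence interval −0.56 to −0.074) and passed at an unadjusted p under 0.05 but not after adjustment (adjusted p = 0.426 from limma). Between strains with LatA, the difference was −0.23 (95% confidence interval −0.41 to −0.061, adjusted p = 0.103). Its adjusted p was 0.0427 with the 2 groups alone, 0.0121 with array weights, 0.0400 with median centring and 0.0430 with quantile normalization, each time under the fold threshold. The adjusted p stayed above 0.05 with the methods' test (0.105), the replicate block (0.150) and the trend and robust settings (0.0907).

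*spt5* was the member with the smallest span over the arrays, from −0.25 to 0.10. Its group means were −0.12 and −0.017 with DMSO and 0.040 and −0.060 with LatA, in *rpb1-12XCTD* and *rpb1-12XS2ACTD*. The differences between strains were 0.11 (95% confidence interval −0.11 to 0.32) with DMSO and −0.100 (95% confidence interval −0.32 to 0.12) with LatA. Neither was called, and neither interval reached 1.5 fold.

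*spt6* and *set2* were higher with LatA than with DMSO in *rpb1-12XCTD* on every array, by less than 1.5 fold. *spt6* had values of −0.21, −0.23 and 0.034 with DMSO and of 0.17, 0.14 and 0.18 with LatA. The difference was 0.30 log2, or 1.23 fold (SE 0.077, 95% confidence interval 0.13 to 0.47, adjusted p = 0.0117 from limma). *set2* had values of −0.23, −0.16 and −0.023 with DMSO and of 0.25, 0.17 and 0.15 with LatA. The difference was 0.33 log2, or 1.25 fold (SE 0.080, 95% confidence interval 0.15 to 0.50, adjusted p = 0.00932 from limma). By the methods' test adjusted p = 0.110 for *spt6* and 0.0726 for *set2*. The DMSO arrays of *rpb1-12XCTD* had low medians over all probe sets in replicates 1 and 2, and the median of all genes moved by 0.098 log2 in this comparison. With each array centred on its median, the differences were 0.21 for *spt6* and 0.23 for *set2*. Neither was called, since both lay under the fold threshold.

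In *rpb1-12XS2ACTD* the LatA effect was 0.095 for *spt6* (95% confidence interval −0.075 to 0.27, adjusted p = 0.378) and 0.17 for *set2* (95% confidence interval −0.0041 to 0.35, adjusted p = 0.123). The DMSO values of *spt6* in this strain were −0.11, −0.098 and −0.024, and those with LatA were 0.053, 0.024 and −0.024. Those of *set2* were −0.11, −0.084 and 0.0087 with DMSO and 0.20, 0.13 and −0.0087 with LatA. In both genes LatA replicate 3 overlapped the DMSO arrays. The interaction was −0.21 (95% confidence interval −0.45 to 0.036, adjusted p = 0.486) for *spt6* and −0.15 (95% confidence interval −0.40 to 0.096, adjusted p = 0.601) for *set2*, so a difference in the LatA effect between strains was not shown. With LatA *spt6* differed between strains by −0.15 (95% confidence interval −0.32 to 0.023, adjusted p = 0.290 from limma), and its adjusted p was 0.0482 by the methods' test and 0.0221 with array weights, under the fold threshold. The adjusted p was 0.309 with the replicate block and 0.242 with trend and robust settings. With the 2 groups alone, median centring and quantile normalization it was 0.0543, 0.130 and 0.0791. The *set2* difference was −0.080 (95% confidence interval −0.26 to 0.096, adjusted p = 0.604).

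**Figure D3:**
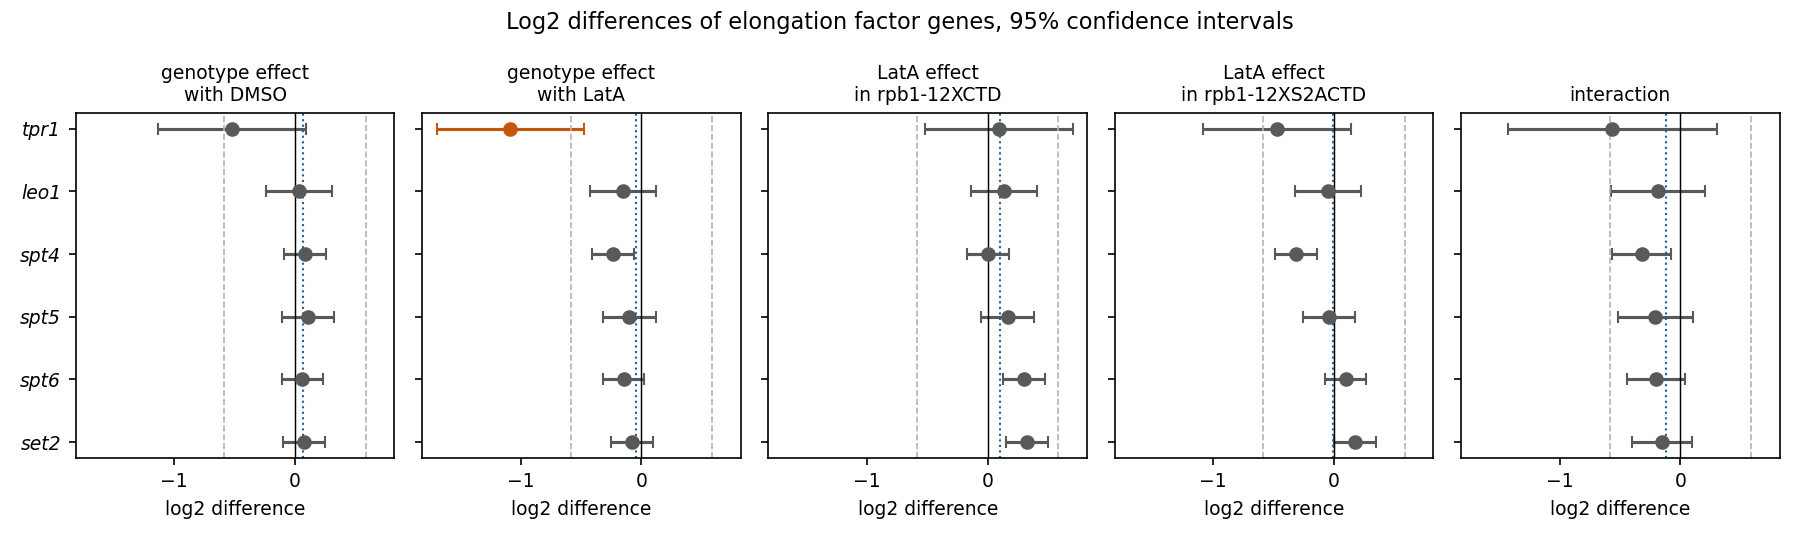
Log2 differences (horizontal axis) of the 6 genes in the 5 comparisons from limma, with 95% confidence intervals. Dashed lines mark 1.5 fold, the dotted line marks the median of all probe sets, and the called difference, *tpr1* with LatA at −1.08, is orange.

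Counted together, LatA changed 0 of the 6 genes past both thresholds in *rpb1-12XCTD*, where 13.2% of all probe sets were called, and 0 in *rpb1-12XS2ACTD*, where 11.5% were called. At an unadjusted p under 0.05 in limma, 2 and 1 members passed, against 45.6% and 43.7% of all probe sets. The methods' test called 0 members in both strains, against 0.308% and 10.0% of all probe sets. With the adjusted p alone, 2 members passed in *rpb1-12XCTD* (35.7% of all probe sets) and 1 in *rpb1-12XS2ACTD* (33.3%). For the interaction 0 members were called, where 0.0205% of all probe sets were, and 1 passed at an unadjusted p under 0.05, as 11.0% of all probe sets did. The median of the 6 differences was 0.15 with LatA in *rpb1-12XCTD*, against 0.098 over all probe sets, and −0.046 in *rpb1-12XS2ACTD*, against −0.0086. Between strains it was 0.066 with DMSO, against 0.064 over all probe sets, and −0.15 with LatA, against −0.045. With LatA the strains did not overlap in 3 of 6 genes (*tpr1*, *spt4* and *spt6*, lower in *rpb1-12XS2ACTD* in each), a share near the 47.7% of all probe sets. With LatA against DMSO, the groups did not overlap in 2 of 6 genes in *rpb1-12XCTD* (43.0% of all probe sets) and in 1 of 6 in *rpb1-12XS2ACTD* (56.8%). The comparisons share arrays and are not independent of each other.

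The spread of the 4 group means was 1.08 log2 for *tpr1*, and 6.38% of all probe sets had a larger one. For *tpr1* this spread is the strain difference with LatA given above, and not a further result. For the other 5 members the spread lay between 0.15 and 0.33, and 60.9% to 87.7% of all probe sets had a larger one. The Paf1 complex genes *tpr1* and *leo1* correlated at r = 0.62 over the 12 arrays, and *tpr1* and *set2* at −0.0093. *spt6* and *set2* had the highest r of any pair of members, 0.92. The 12 points share 4 groups and the level of each array, so these values describe the likeness of patterns.

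Genes with patterns most like that of *tpr1* over the 12 arrays were *pfd3*, for a prefoldin subunit (r = 0.98), *swi10*, for a DNA repair protein (r = 0.98), and *caf16* (r = 0.97). These genes were picked for their likeness to *tpr1* on the same arrays, so the likeness of their strain differences follows from that choice. They shared the place of the array that stood apart. In *rpb1-12XS2ACTD* the *caf16* values were 0.14, −0.62 and −0.59 with DMSO. With LatA *caf16* was lower in *rpb1-12XS2ACTD* (−0.71 log2, adjusted p = 0.0372 from limma), whereas *pfd3* (−0.62, adjusted p = 0.0507) and *swi10* (−0.37, adjusted p = 0.0939) were not called. In all, 84 probe sets had an r above 0.9 with *tpr1*. The closest to *set2* were *cmr2*, *pof3* and *sck1* (r of 0.95 to 0.96), among 96 above 0.9. The closest to *spt4* were *mnn9*, *sal3* and *tim23* (r of 0.94 to 0.97), among 27 above 0.9.

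Other genes for RNA polymerase II transcription, for chromatin and for mRNA processing and export were taken from 10 lists, of 98 genes, of which 93 were measured. With DMSO limma called 0 of 93 between strains (0.862% of all probe sets were called), with 16 at an unadjusted p under 0.05 (827 of 4875 probe sets passed this). The methods' test called 0 of these genes, as it called 0 of all 4875 probe sets. Without *rpb1-12XS2ACTD* DMSO replicate 1, 2 of 93 were called with DMSO, *lsk1* (0.70, adjusted p = 0.00188) and *pcm1* (−0.62, adjusted p = 0.0251). That fit called 201 of all 4875 probe sets. Without *rpb1-12XCTD* DMSO replicate 3 it was *fcp1*, for a CTD phosphatase (0.63, adjusted p = 0.0137, named after its values were seen), and with array weights *fcp1* and *lsk1* (0.60 and 0.68). Both of these fits called more of all probe sets with DMSO than the main fit, which called 42. The fit with array weights called 87, and fits without an array called 3 to 201. With LatA the methods' test called 2 of 93 between strains (3.12% of all probe sets). After quantile normalization limma called 5, in a fit that called 265 of 4875 probe sets. In the main fit limma called 1 (1.08%, against 2.89% of all probe sets), *lsk1*, which encodes the catalytic subunit of a serine 2 kinase of the CTD. Its log2 values were −0.31, −0.29 and −0.27 on the LatA arrays of *rpb1-12XCTD* and 0.29, 0.41 and 0.19 on those of *rpb1-12XS2ACTD*. The groups did not overlap, and the difference of 0.59 (SE 0.13, adjusted p = 0.0317 from limma) was just over 1.5 fold. The call ended without any of the 6 LatA arrays (adjusted p of 0.0772 to 0.122), and with array weights the difference was 0.58, under the fold threshold. With DMSO *lsk1* differed by 0.53 (adjusted p = 0.0986). The other subunit genes of that kinase were not called with LatA, *lsc1* at −0.29 (adjusted p = 0.0846) and *lsg1* at 0.21 (adjusted p = 0.578), nor was *cdk9* at −0.087 (adjusted p = 0.592). *rpb1* itself differed by −0.20 with LatA (adjusted p = 0.404). Of the 11 genes for CTD kinases and phosphatases, *lsk1* was thus the one called between strains. *pcm1*, from the list of capping genes, had a larger strain difference with LatA than *lsk1* (−0.76, adjusted p = 0.0608 from limma) but was not called.

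With LatA in *rpb1-12XCTD*, 4 of the 93 genes rose and 1 fell, which is 5.38% against 13.2% of all probe sets. *tfg1*, of the general factor TFIIF, rose by 0.70 log2 (SE 0.095, adjusted p = 0.000409 from limma). It rose by 0.69 in *rpb1-12XS2ACTD* (adjusted p = 0.000647), and no array left out ended either call. It was the 1 gene called of 6 in the list of RNA polymerase II elongation factors in each strain. *cti6*, of 11 genes of the Clr6 histone deacetylase complexes, rose by 0.74 and 0.64 in the same order. The other list genes that rose in *rpb1-12XCTD* were *spt2*, for a histone chaperone (0.69, 1 of 9 chaperone genes), and *ubp8*, for a histone H2B deubiquitylase (0.63, 1 of 13 genes of H2B ubiquitylation and the Set1 complex). In *rpb1-12XS2ACTD* they differed by 0.25 (adjusted p = 0.163) and 0.32 (adjusted p = 0.0533) and were not called. Without *rpb1-12XCTD* DMSO replicate 1, *spt2* changed by 0.58 and *ubp8* by 0.54, under the fold threshold, and *ubp8* by 0.55 without replicate 2 of that group. By the methods' test none of these calls in *rpb1-12XCTD* held (adjusted p of 0.0552 to 0.0953). After quantile normalization the 4 rises were 0.53, 0.55, 0.52 and 0.45 for *tfg1*, *cti6*, *spt2* and *ubp8*, and after median centring that of *ubp8* was 0.53, all under the fold threshold.

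In *rpb1-12XS2ACTD* 2 list genes rose with LatA, *tfg1* and *cti6*, and 5 fell, together 7.53% against 11.5% of all probe sets. Of 5 genes for mRNA capping and cap binding, 2 fell, and 0 were called without *rpb1-12XS2ACTD* DMSO replicate 1, the array that stood apart. *pct1*, for the RNA triphosphatase that begins capping, changed by −0.69 log2 in this strain (SE 0.13, adjusted p = 0.00303 from limma), and by −0.68 in *rpb1-12XCTD* (adjusted p = 0.00254, and 0.0774 by the methods' test). *pcm1*, for the cap methyltransferase, changed by −0.76 in *rpb1-12XS2ACTD* (adjusted p = 0.0183) and by −0.34 in *rpb1-12XCTD* (adjusted p = 0.243, not called). The *pcm1* values of DMSO-treated *rpb1-12XS2ACTD* were 0.65, −0.10 and −0.36, so that replicate 1 was again far above the others, and without it the change was −0.47, under the fold threshold. The median of these 5 genes was −0.51 in *rpb1-12XS2ACTD*, against −0.0086 over all probe sets, and −0.34 without that array. In *rpb1-12XCTD* it was −0.098, against 0.098 over all probe sets. With all 12 arrays, the median in both strains was the value of a cap-binding gene. The medians of the other 9 lists lay between −0.26 and 0.35 in *rpb1-12XS2ACTD* and between −0.15 and 0.35 in *rpb1-12XCTD*.

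Of 11 RNA polymerase II subunit genes, 2 fell with LatA in *rpb1-12XS2ACTD*, *rpb9* (−0.78 log2, SE 0.10, adjusted p = 0.000527 from limma) and *rpb8*, for a subunit shared with the other nuclear polymerases (−0.59, adjusted p = 0.00577). In *rpb1-12XCTD* the changes were −0.25 (adjusted p = 0.0758) and −0.58, and neither was called, the second lying just under the fold threshold. *asf1*, a histone chaperone gene, changed by −0.65 in *rpb1-12XS2ACTD* (adjusted p = 0.00476) and by −0.45 in *rpb1-12XCTD* (adjusted p = 0.0256, under the fold threshold). Without *rpb1-12XS2ACTD* DMSO replicate 1 the changes of *cti6*, *pct1*, *asf1* and *rpb8* were 0.58, −0.58, −0.54 and −0.57, all under the fold threshold. Without LatA replicate 3 of that strain, *asf1* (−0.55), *rpb8* (−0.50) and *pcm1* (adjusted p = 0.0600) were not called either, and *pct1* was not called in *rpb1-12XCTD* without DMSO replicate 3 (−0.54). With array weights *cti6*, *pcm1*, *asf1* and *rpb8* came to 0.57, −0.57, −0.57 and −0.57, also under the fold threshold, and by the methods' test *pcm1* (adjusted p = 0.132) and *asf1* (adjusted p = 0.0569) were not called. The call of *rpb9* held whichever array was left out. None of 15 genes for mRNA 3′ end formation, of 7 for chromatin remodelling and of 5 for mRNA export was called in any of the 5 comparisons. For the interaction limma called 0 of all 93 (0.0205% of all probe sets), and 16 passed at an unadjusted p under 0.05 (11.0% of all probe sets). Without *rpb1-12XCTD* DMSO replicate 3, 1 was called (*rpb9*, −0.62, adjusted p = 0.0498 from limma). Fits without an array called 1 to 52 of all probe sets for the interaction.

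**Figure D4:**
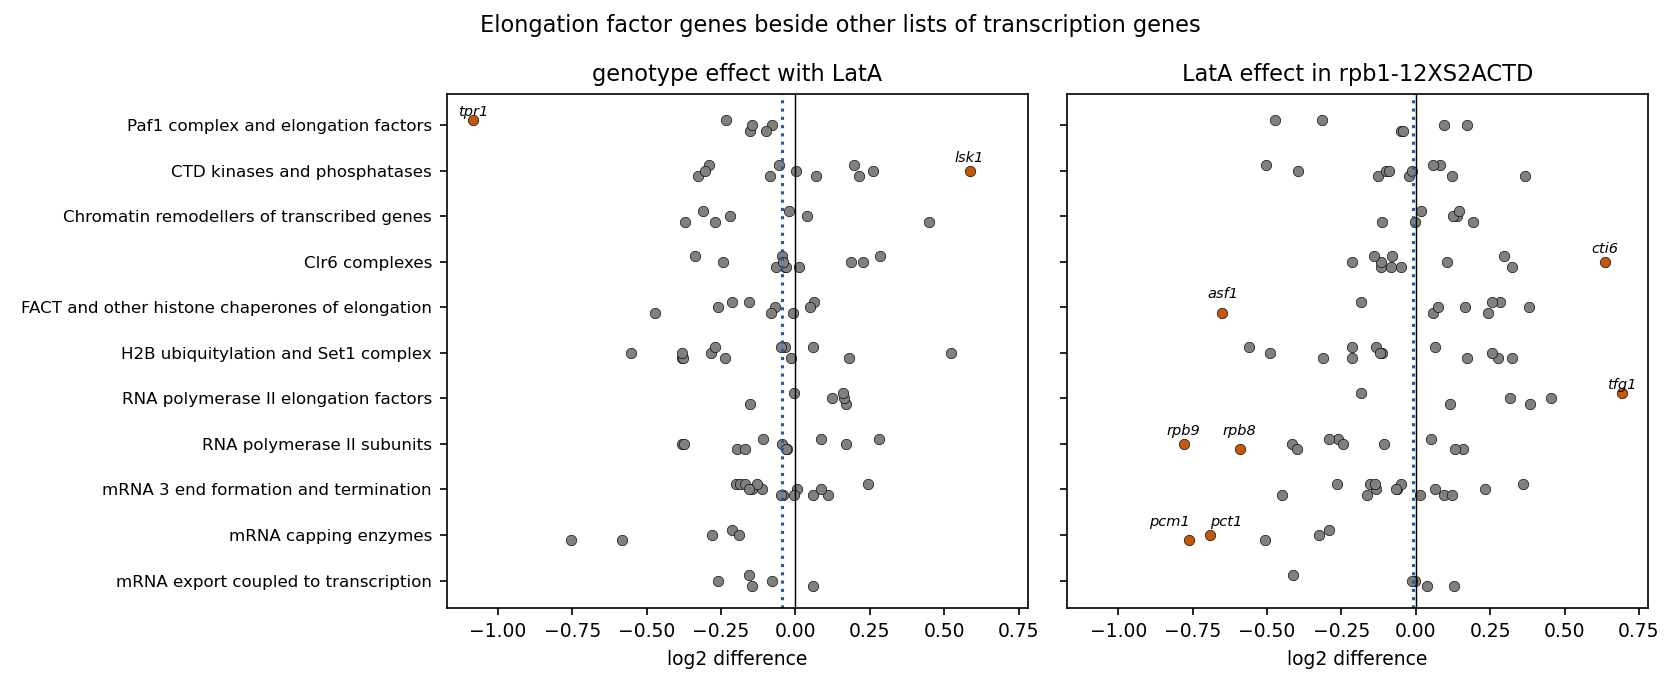
Log2 differences (horizontal axis) of the 6 members and of the genes of 10 lists between strains with LatA (left) and with LatA against DMSO in *rpb1-12XS2ACTD* (right), a point for each gene, called genes in orange with their names, and a dotted line at the median of all probe sets. *tpr1*, at −1.08, lies lowest of all these genes in the left panel.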

How the data were processed

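RNA of 12 cultures was hybridized to Affymetrix Yeast Genome 2.0 arrays. The authors normalized the arrays by RMA in GeneSpring GX, and the deposited values are log2 intensities in which each probe set has a median of 0 over the 12 arrays. The step that centred them is not given in the sources used here, and no signal over background is kept, so no filter on low signal was run. Probe sets were named through the identifiers in the paper's gene list (2584, a partial copy) and the array annotation (1337), with symbols from RefSeq, and 954 had no name. Values in that list were not used.

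A linear model with 4 group means was fitted in R 4.3.3 with limma 3.58.1. Gene names were joined in Python 3.11.15. The p-values were adjusted by Benjamini-Hochberg over 4875 probe sets. The methods' test stands for the gene-specific test that the study names, run here with equal variances, which its methods do not state. Replicate numbers paired the LatA arrays of the strains (r of deviations 0.34, 0.20 and 0.26, every pair above 0.1). No other of the 6 pairs of groups had every r above 0.1. The DMSO and LatA arrays of *rpb1-12XS2ACTD* gave 0.15, 0.074 and 0.23, so some pairing there is possible. No source says what a replicate number marks. Precision rests on 3 arrays per group. The members and lists were chosen with earlier results of these data known. All 6 measured members were named, as were list genes called in a comparison (at most 4 per list and comparison), the 3 genes most correlated with each of the 3 members of widest range, and *rpb1*, *lsk1*, *lsc1*, *lsg1* and *cdk9*. The procedure was tested on simulated data.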

Additional observations from a re-analysis of the deposited data

How the results depend on the processing

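The *tpr1* difference between strains with LatA kept its direction in all 10 other settings and 12 fits without an array. The number of members called with LatA was 0 with the replicate number as a block (*tpr1* −1.08, adjusted p = 0.0649) and with the trend and robust options of limma (−1.08, adjusted p = 0.0509). It was 0 to 1 when each array was left out, with *tpr1* at −1.21 to −0.97. With DMSO it was 0 to 1 over the same fits. Without the fold threshold, 2 members passed for LatA in *rpb1-12XCTD* and 1 in *rpb1-12XS2ACTD*. Members that were not called changed sign with median centring or quantile normalization. With DMSO these were *leo1* (−0.031 and −0.033), *spt6* (−0.0074 and −0.034) and, after quantile normalization, *set2* (−0.0035). For LatA in *rpb1-12XCTD* they were *spt4* (−0.089 and −0.078) and, after median centring, *tpr1* (−0.0037). Leaving out an array also turned signs near 0, with ranges of −0.066 to 0.14 for *leo1* with DMSO, −0.018 to 0.28 for *tpr1* and −0.033 to 0.062 for *spt4* for LatA in *rpb1-12XCTD*, and −0.14 to 0.043 for *leo1* and −0.12 to 0.022 for *spt5* for LatA in *rpb1-12XS2ACTD*. The causes were not tested.

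Deviations of same-numbered arrays correlated above 0.1 in 7 of 18 pairs (range −0.40 to 0.34), which include all 3 pairs of LatA arrays. The replicate block changed no other call of a member. Over all probe sets the 42 calls with DMSO were 0 with a limma fit of the 2 groups alone, 0 with the methods' test, 75 at the unadjusted p of that test, 87 with array weights and 15 after quantile normalization (3 to 201 without an array). The 141 with LatA were 235, 230, 233 and 265 with the 2 groups alone, the unadjusted methods' test, array weights and quantile normalization, 273 without the fold threshold and 35 to 189 without an array. The 642 for LatA in *rpb1-12XCTD* were 15 with the methods' test and 1738 without the fold threshold, and the 561 in *rpb1-12XS2ACTD* were 1625 without it. The 1 for the interaction was 0 with trend and robust options, 19 after quantile normalization and 1 to 52 without an array. Of calls for LatA in *rpb1-12XCTD*, 80.4% were higher, against 66.4% after median centring and 52.1% after quantile normalization. These last rescale the centred values and not the intensities.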
